A study of Mus musculus with 16 samples.

Results

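Receptor tyrosine kinases are cell surface receptors that bind a growth factor outside the cell and phosphorylate tyrosines inside it. The set described here holds 8 of them, Kit, Mst1r, Met, Mertk, Axl, Tyro3, Flt3 and Csf1r, out of 39179 genes in the count files. They were chosen by name, as Kit and other receptor tyrosine kinases. Mst1r was added because its count rose with antigen in these same libraries, so its rise is described below without a test.

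The libraries came from bone marrow derived mast cells (BMMCs), mast cells grown from the femur and tibia marrow of male C57BL/6 mice aged 8 to 10 weeks. The marrow was cultured for 4 weeks with interleukin 3 and stem cell factor, so every group had been grown with the ligand of Kit. PEP+/+ cells were wild type, and PEP-/- cells came from mice without the tyrosine phosphatase PEP, which the gene Ptpn22 encodes. All 8 conditions received immunoglobulin E (IgE), at 0.05 µg/ml per the labels and over 3 h, which loads the high-affinity IgE receptor. IgE alone gave sensitized cells, and dinitrophenol (DNP), given over 1 h at 200 ng/ml as the antigen that the IgE binds, gave activated cells. The glucocorticoid dexamethasone (DEX, 100 nM for 8 h) was given with IgE alone or with IgE and DNP. Its 8 h exceed the 3 h of IgE and the 1 h of DNP, and the labels list it first. DEX in sensitized or activated cells below names the groups compared and not an order of addition. The groups were therefore IgE, IgE DNP, IgE DEX and IgE DNP DEX in each of the 2 genotypes, with 2 replicates each and 16 libraries in all. The study's methods call the replicates biological, but whether each came from its own mice or culture is not given in the sources used here, so p-values measure only the spread between these libraries, which may be technical.

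Kit binds stem cell factor, and mast cells need its signal to form, grow and survive. Mst1r (also named RON) and Met are sister receptors for macrophage stimulating protein and hepatocyte growth factor. Tyro3, Axl and Mertk form the TAM family, which binds Gas6 and protein S and is known in macrophages for the uptake of dying cells. Flt3 and Csf1r share the domain layout of Kit and serve progenitors with dendritic cells, and macrophages, respectively.

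Kit lies on chromosome 5 (75574916 to 75656722, plus strand, GRCm38) and Mst1r on chromosome 9 (107906873 to 107920383, plus strand). Met lies on chromosome 6 (17463800 to 17573980, plus strand) and Tyro3 on chromosome 2 (119797733 to 119818104, plus strand). Axl lies on chromosome 7 (25757273 to 25788705, minus strand). None of these 5 genes overlaps another annotated gene. Csf1r overlaps Hmgxb3 on the opposite strand, and whether the counting used strand is not given in the sources used here.

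The bases just upstream of Mst1r and Kit are shown because these were the antigen-responsive and the most abundant receptor. Both come from RefSeq (GRCm38.p6, plus strand, 5′ to 3′) and end 1 base before the annotated gene. Mst1r spans chr9:107906639-107906872 and Kit spans chr5:75574737-75574915. Capitals mark GGAAA, the core that NFAT proteins bind, and GGGCGG, the GC box, on either strand.
Mst1r: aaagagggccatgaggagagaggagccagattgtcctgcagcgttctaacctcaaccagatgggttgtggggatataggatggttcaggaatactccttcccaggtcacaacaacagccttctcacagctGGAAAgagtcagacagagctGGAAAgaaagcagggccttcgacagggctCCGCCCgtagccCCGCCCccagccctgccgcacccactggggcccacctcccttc
Kit: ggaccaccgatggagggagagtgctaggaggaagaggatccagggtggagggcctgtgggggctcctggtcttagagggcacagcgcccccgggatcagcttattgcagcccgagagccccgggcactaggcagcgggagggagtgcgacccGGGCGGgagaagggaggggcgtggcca

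In the 250 bases before the RefSeq start, Mst1r held 2 matches to GGAAA and 2 to GGGCGG. The Kit window held 1 match to GGGCGG and none to GGAAA. Neither of these windows held the AP-1 motif TGANTCA, the CRE motif TGACGTCA, the GATA motif AGATAA, the E-boxes CATGTG and CACGTG or the glucocorticoid receptor half-site AGAACA. The 2nd RefSeq start of Mst1r, inside the gene, held 1 AGAACA. Met held 1 TGANTCA, 1 CACGTG and 3 GGGCGG. Over all 32851 promoter windows of this length, read on both strands, GGAAA was found in 55.6%, GGGCGG in 32.7%, AGAACA in 16.1%, CATGTG in 12.3% and AGATAA in 9.99%. TGANTCA was found in 6.75%, CACGTG in 6.02% and TGACGTCA in 1.55%. A match is a description of the letters and not evidence of a bound factor.

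Gene counts summed to between 8612531 and 22143526 per library, with a median of 12814043.5. Ptpn22 had 130 to 2799 reads in the 8 PEP+/+ libraries and 0 to 55 in the 8 PEP-/- libraries. The 5 antigen response genes Tnf, Il13, Egr1, Egr2 and Nr4a1 were all higher with DNP, and the 4 glucocorticoid response genes Tsc22d3, Fkbp5, Per1 and Zbtb16 were all higher with DEX. Levels are CPM, the count of a gene relative to the library total after TMM scaling, which evens out library composition. The 10 mast cell markers summed to 65759 to 104923 CPM in the 16 libraries. The 12 macrophage and monocyte markers summed to 7.44 to 18.8 CPM, with C1qa and Vsig4 at 0 in all libraries, and the 4 lymphocyte markers to under 1 CPM.

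Kit dominated the set. Per length of transcript, its level was 203 to 525 CPM per kilobase (RPKM) with a median of 307, and it ranked between 70 and 282 among 37693 genes in a library. Its reads numbered 16040 to 90228 per library. On the same RPKM scale Mst1r reached at most 3.21, Met 0.50, Tyro3 0.249, Csf1r 0.181, Axl 0.179, Flt3 0.0910 and Mertk 0.0218. Among the 50 other receptor tyrosine kinases, the fibroblast growth factor receptor Fgfr1 averaged 7.15 RPKM in PEP+/+ IgE libraries, and the insulin receptor Insr 2.06.

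**Figure D1:**
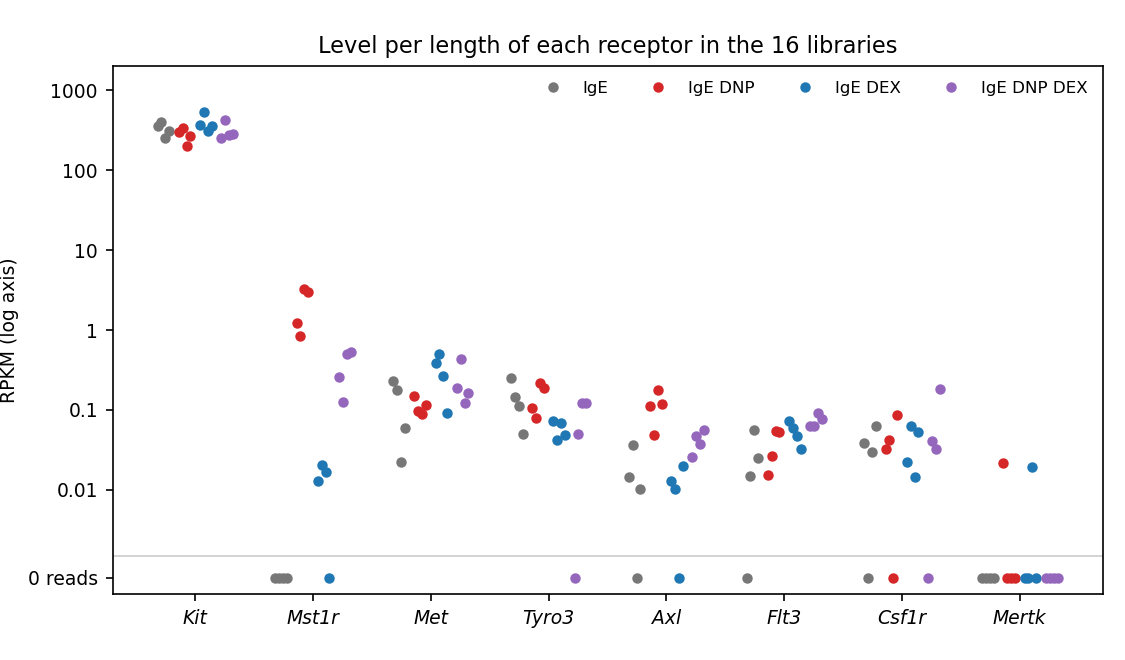
Level of each of the 8 receptors in RPKM on a log axis, 1 point per library, coloured by treatment, with libraries at 0 reads below the grey line. Kit stays between 203 and 525 RPKM in all 16 libraries, and Mst1r is at 0 reads in the 4 IgE libraries and highest in the 4 IgE DNP libraries.

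Low levels limited what could be tested for the other 7. Only Kit, Mst1r, Met and Tyro3 passed the filter on low counts, and Mst1r passed it through its IgE DNP libraries, so it is left out of the counts of receptors tested. Mertk had 3 reads in the 16 libraries together, Axl 45, Csf1r 57 and Flt3 65. Intervals and floors given for such counts cover counting error only. In bulk samples, fewer cells that express a gene and less RNA per cell cannot be told apart.

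Kit showed no difference that passed the test (edgeR quasi-likelihood test with Benjamini-Hochberg adjustment over 13305 genes, adjusted p under 0.05). In PEP+/+ cells the Kit level was 3169 and 2248 CPM in the IgE libraries of replicates 1 and 2, and 2638 and 1805 CPM in the IgE DNP libraries. In PEP-/- cells it was 3586 and 2766 CPM with IgE and 2994 and 2378 CPM with IgE DNP. Replicate 1 was above replicate 2 in all 4 groups, and within each replicate number the DNP library was the lower one. The difference with DNP was -0.26 (log2, SE 0.21, 95% interval -0.73 to 0.20, adjusted p = 0.508 by edgeR).

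With DEX the Kit level was 3238 and 2704 CPM in PEP+/+ IgE DEX libraries and 2225 and 2421 CPM in PEP+/+ IgE DNP DEX libraries. The PEP-/- libraries had 4679 and 3193 CPM with IgE DEX and 3744 and 2498 CPM with IgE DNP DEX. The 4679 CPM of PEP-/- IgE DEX replicate 1 was the highest of the 16, and the ranges of every pair of treatments overlapped. Under DEX, the difference with DNP was -0.34 (log2, SE 0.21, 95% interval -0.81 to 0.12, edgeR adjusted p = 0.347). The difference of Kit with DEX was 0.22 in sensitized cells (log2, SE 0.21, adjusted p = 0.710 by edgeR) and 0.14 in activated cells (SE 0.21, adjusted p = 0.778), and neither passed.

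Same-numbered libraries deviated together across all conditions. With the replicate number as a block, the fall of Kit with DNP in cells with DEX was called (log2 difference -0.33, SE 0.12, edgeR adjusted p = 0.0448). That blocked fit called 37.6% of all genes in this comparison. Without DEX the blocked difference was -0.26 (log2, SE 0.12, adjusted p = 0.106 by edgeR) and was not called. Within one replicate number and genotype, Kit was lower with DNP in 4 of 4 pairs without DEX, by -0.32 to -0.22 on the log2 scale. It was lower in 4 of 4 pairs with DEX as well, by -0.54 to -0.16. DEX went with higher Kit in 4 of 4 pairs of sensitized cells (log2 ratio 0.03 to 0.38) and in 3 of 4 pairs of activated cells (-0.25 to 0.42).

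With the block, Kit was called between the genotypes, and the other 2 receptors of the set that could be tested, Met and Tyro3, were not. Averaged over treatments, PEP-/- minus PEP+/+ was 0.33 (log2, SE 0.15, 95% interval 0.00 to 0.66, unadjusted p = 0.0473, edgeR adjusted p = 0.342). With the replicate block it was 0.32 (log2, SE 0.086, adjusted p = 0.0191 by edgeR), in a fit that called 17.4% of all genes. Kit was higher in PEP-/- cells in all 8 pairs of the same treatment and replicate number, by 0.04 to 0.75 on the log2 scale. Treatments of one genotype and replicate number may share a culture. The 8 pairs, and the p-values for genotype, may then rest on fewer independent comparisons. Of the 17 other receptor tyrosine kinases tested, 3 were higher in PEP-/- cells in the same blocked fit, Insr (log2 difference 0.32), Erbb3 (0.52) and Pdgfrb (1.23). Of the 10 mast cell markers, 0 were called between the genotypes, with or without the block. Of 6 tested macrophage and monocyte genes, 1, Lyz2 (0.76), was higher in PEP-/- cells with the block. Of 4 tested dendritic cell genes, 1, H2-Ab1 (0.71), was, in the same fit that called 17.4% of all genes. The medians of the 2 lists without the block were 0.22 and 0.05 (log2), so these genes do not stand for their lists. The part of these markers in the Kit value was not tested.

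**Figure D2:**
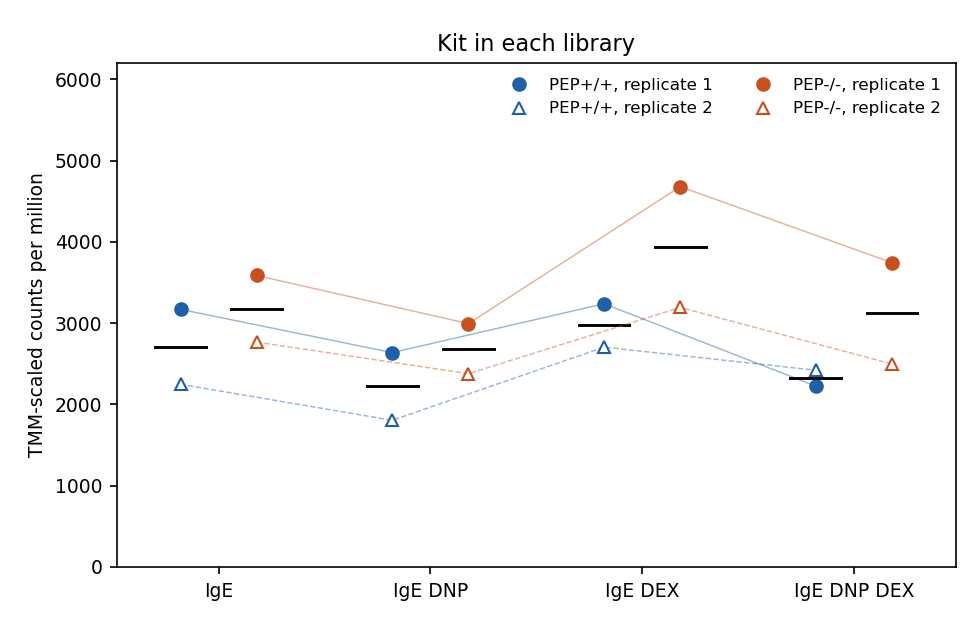
Kit in TMM-scaled CPM in each library, by treatment and genotype, with thin lines joining libraries of one genotype and replicate number and black bars for the means of 2 libraries. Replicate 1 lies above replicate 2 in 7 of 8 conditions, and each PEP-/- mean lies above the PEP+/+ mean of the same treatment.

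**Figure D3:**
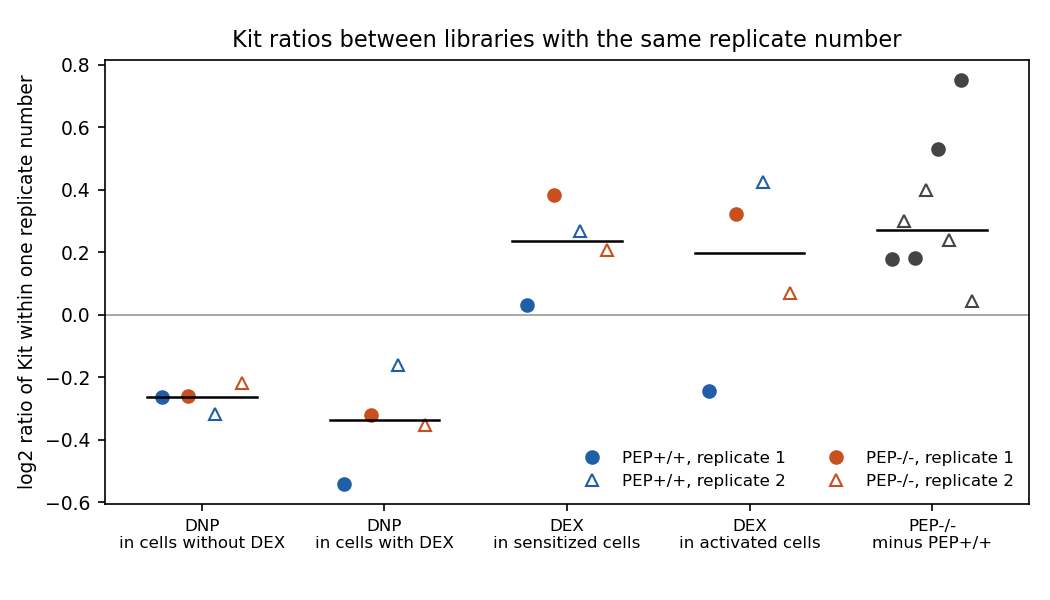
Log2 ratio of Kit between libraries that share a replicate number, 1 point per ratio, with black bars for the median; the genotype ratios, in grey, hold 1 point per treatment and replicate. All 8 ratios for DNP lie below 0 and all 8 genotype ratios, which may not be independent, lie above it.

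Ordered by mean, Kit ran from 3936 ± 1051 CPM in PEP-/- IgE DEX down to 2221 ± 589 CPM in PEP+/+ IgE DNP (SD, n = 2). PEP-/- IgE (3176 ± 580), PEP-/- IgE DNP DEX (3121 ± 881), PEP+/+ IgE DEX (2971 ± 378), PEP+/+ IgE (2709 ± 651), PEP-/- IgE DNP (2686 ± 435) and PEP+/+ IgE DNP DEX (2323 ± 138) lay between. No 2 neighbours in this order differed by more than the sum of their SDs. The genes whose log2 CPM followed Kit most closely over the 16 libraries were Mib1, Inpp5d and Phf3, with root mean square differences of 0.10, 0.107 and 0.107 after each gene was centred on its mean. Inpp5d encodes the lipid phosphatase SHIP1.

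Mst1r had no reads in sensitized cells and 52 to 273 with antigen. All 4 IgE libraries had 0 reads, a count that allows up to 3 reads per library. The IgE DNP libraries had 65 and 143 reads in PEP+/+ cells and 52 and 273 reads in PEP-/- cells, or 6.15, 16.1, 4.27 and 15 CPM. The groups did not overlap, and replicate 2 was the higher one in both genotypes.

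Against a floor of 3 reads over the IgE libraries of a genotype, Mst1r was at least 89.6-fold higher with DNP in PEP+/+ cells and at least 109-fold higher in PEP-/- cells. These values come from the contrast that chose Mst1r and carry no test. The genotypes were compared within IgE DNP, a contrast other than the one that chose Mst1r but in the same libraries, through which it also passed the filter. PEP-/- minus PEP+/+ was -0.20 (log2, SE 0.78), given as a description without a test because of that choice and filter. In this comparison 0.00752% of all genes were called. The Mst1r value ran from -1.35 to 0.68 when single libraries were left out, so these libraries cannot decide whether it differed between the genotypes.

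With DEX, the antigen-associated level of Mst1r was lower. IgE DEX libraries had 1 and 2 reads in PEP+/+ cells and 2 and 0 in PEP-/- cells. The IgE DNP DEX libraries had 10 and 40 reads in PEP+/+ cells and 8 and 28 in PEP-/- cells, or 1.30, 2.50, 0.626 and 2.66 CPM. They lay above every IgE DEX library and below every IgE DNP library.

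From summed reads, Mst1r with DNP was 27.5 times its IgE DEX level in PEP+/+ cells (50 against 3 reads, exact 95% counting interval 8.89 to 138). In PEP-/- cells the ratio was 22.5 (36 against 2 reads, interval 5.79 to 193). Between activated cells with and without DEX the ratio was 0.197 in PEP+/+ cells (50 against 208 reads, interval 0.142 to 0.270) and 0.144 in PEP-/- cells (36 against 325 reads, interval 0.0993 to 0.204). The ratios in activated cells use the IgE DNP libraries for which Mst1r was chosen. Those for DNP under DEX concern the antigen rise for which it was added. All are descriptions without a test, and their intervals cover counting error only.

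The genes whose pattern lay closest to Mst1r over the 16 libraries were Il33, Loxl2 and Errfi1, with root mean square differences of 0.695, 0.754 and 0.782 in log2 CPM. Il33 encodes an alarmin cytokine, Loxl2 a lysyl oxidase and Errfi1 an inhibitor of the EGF receptor. Errfi1 averaged 9.80 and 11.5 CPM in PEP+/+ and PEP-/- IgE libraries, 269.5 and 234 CPM with IgE DNP, and 105 and 98.5 CPM with IgE DNP DEX. None of the 3 names was kept when the prior count was 0.5 in place of 2.

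**Figure D4:**
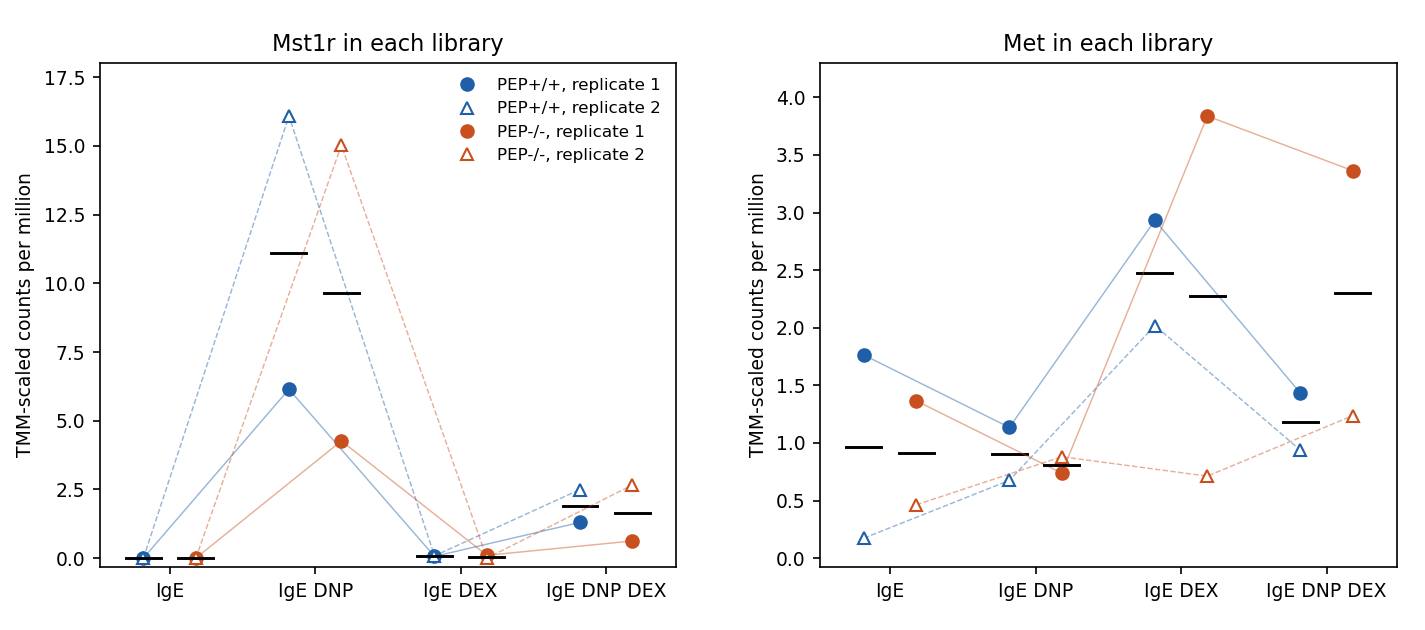
Mst1r (left) and Met (right) in TMM-scaled CPM in each library, by treatment and genotype, with thin lines joining libraries of one genotype and replicate number and black bars for the means of 2 libraries. Mst1r is between 4.27 and 16.1 with IgE DNP and between 0.626 and 2.66 with IgE DNP DEX, and Met is highest, at 3.84, in PEP-/- IgE DEX replicate 1.

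Met, the hepatocyte growth factor receptor, was counted in every library at 2 to 74 reads. Its PEP+/+ libraries had 24 and 2 reads with IgE and 45 and 48 with IgE DEX, and its PEP-/- libraries 15 and 9 with IgE and 74 and 7 with IgE DEX. In CPM these were 1.76 and 0.173, then 2.93 and 2.02, in PEP+/+ cells, and 1.37 and 0.463, then 3.84 and 0.712, in PEP-/- cells. Replicate 1 was the higher one in all 4 groups, and the ranges of the treatments overlapped. The fitted difference with DEX was 1.36 in sensitized cells (log2, SE 0.67, 95% interval -0.11 to 2.82, edgeR adjusted p = 0.305), which did not pass. It ran from 0.51 without PEP-/- IgE DEX replicate 1 to 2.59 without PEP+/+ IgE replicate 1.

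With the replicate block, Met was called in this comparison (log2 difference 1.41, SE 0.38, adjusted p = 0.0123 by edgeR), among 26.7% of all genes. Met was higher with DEX in 4 of 4 pairs of sensitized cells of one genotype and replicate number, by 0.62 to 3.54 on the log2 scale. In activated cells it was higher with DEX in 4 of 4 pairs, by 0.34 to 2.19. Its reads there were 12 and 6 with IgE DNP and 11 and 15 with IgE DNP DEX in PEP+/+ cells, and 9 and 16, then 43 and 13, in PEP-/- cells. The fitted difference was 0.92 (log2, SE 0.69, edgeR adjusted p = 0.492, and 0.132 with the block).

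Met did not pass the test with DNP. The difference was -0.11 without DEX (log2, SE 0.70, 95% interval -1.66 to 1.43, adjusted p = 0.956 by edgeR) and -0.55 with DEX (SE 0.65, interval -1.98 to 0.88, adjusted p = 0.666). Between the genotypes it was 0.15 (log2, SE 0.48, adjusted p = 0.957 by edgeR). The direction of the values for DNP and for genotype turned when single libraries were left out. Without PEP+/+ IgE replicate 1 the value for DNP without DEX was 1.11, and without PEP-/- IgE DEX replicate 1 the value for DNP with DEX was 0.30 and that for genotype -0.28. The genes closest to Met over the 16 libraries were Jazf1, Hdac4 and Slc6a6, with root mean square differences of 0.418, 0.479 and 0.497 in log2 CPM.

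Tyro3 was the TAM receptor with the most reads, 0 to 21 per library and 140 in all. In PEP+/+ cells it had 21 and 8 reads with IgE, 7 and 10 with IgE DEX, 7 and 12 with IgE DNP and 0 and 12 with IgE DNP DEX. The PEP-/- libraries had 10 and 6, 5 and 3, 6 and 21, and 4 and 8 reads in the same order. The fitted difference with DEX was -1.19 in sensitized cells (log2, SE 0.70, edgeR adjusted p = 0.417) and -0.92 in activated cells (SE 0.69, adjusted p = 0.488). The latter ran from -0.51 without PEP+/+ IgE DNP DEX replicate 1, the library with 0 reads, to -3.71 without replicate 2 of that group. With DNP it was 0.17 without DEX and 0.45 with DEX (log2, SE 0.65 and 0.72, edgeR adjusted p = 0.923 and 0.763). Between the genotypes it was -0.39 (log2, SE 0.49, adjusted p = 0.832 by edgeR), and at this depth such differences were not detectable.

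Axl, which with Tyro3 and Mertk binds Gas6, had 1, 0, 2 and 1 reads in the IgE libraries and 6, 8, 3 and 11 in the IgE DNP libraries. The lowest IgE DNP library had 3 reads (0.246 CPM) and the highest IgE library 2 reads (0.182 CPM), counts too close to separate the groups. With DEX it had 1, 0, 1 and 1 reads without DNP and 1, 3, 3 and 3 with it. Axl did not pass the filter on low counts. Without any filter it was called with DNP in cells without DEX (log2 difference 2.95, SE 1.01, edgeR adjusted p = 0.0381), in a fit that called 10% of its 23136 genes. From summed reads Axl was 7.81 times higher with DNP (28 against 4 reads, exact 95% counting interval 2.73 to 30.6), and with DEX the ratio was 4.84 (10 against 3 reads, 1.25 to 27.4). Mertk had 2 reads in 1 IgE DEX library, 1 read in 1 IgE DNP library and 0 in the other 14.

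Flt3 and Csf1r, the receptors closest to Kit in layout, had 0 to 9 and 0 to 11 reads per library. Flt3 had 0, 4, 1 and 3 reads in the IgE libraries and 7, 7, 7 and 2 in the IgE DEX libraries. Csf1r had 3, 2, 0 and 7 reads with IgE and 2, 0, 3 and 9 with IgE DNP, and its highest value was 11 reads in PEP-/- IgE DNP DEX replicate 2. Without a filter, neither was called in the 4 treatment comparisons or between the genotypes. Csf1r in that fit was higher in PEP-/- cells by 1.45 (log2, SE 0.65, unadjusted p = 0.0245, adjusted p = 0.389 by edgeR). The macrophage marker sum was 7.55 to 15 CPM with IgE, 9.34 to 18.8 with IgE DNP, 7.44 to 16.6 with IgE DEX and 9.43 to 17.7 with IgE DNP DEX. Its ranges thus overlapped between treatments, and it was not split by genotype. Its part in the Csf1r counts was not tested.

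Across the set and without the replicate block, 0 of the 3 receptors that could be tested with DNP were called in cells without DEX. In that comparison 16.7% of all 13305 genes were called. The count was also 0 of 3 with DNP in cells with DEX (12.6% of all genes), 0 of 3 with DEX in activated cells (10.7%) and 0 of 3 with DEX in sensitized cells (9.37%). Between the genotypes it was 0 of 3, beside 1.59% of all genes. None of these 3, Kit, Met and Tyro3, had an unadjusted p under 0.05 in the treatment comparisons, Kit was the 1 that had between the genotypes, and DESeq2 called 0 in each. Their median log2 difference was -0.11, -0.34, 0.14, 0.22 and 0.15 in this order, beside medians over all genes between -0.02 and 0.02. With the replicate block, Kit was called with DNP in cells with DEX and between the genotypes, and Met with DEX in sensitized cells. Those blocked fits called 37.6%, 17.4% and 26.7% of all genes in this order.

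The interaction of DNP and DEX was called for 0.331% of all genes and for 0 of 3 receptors. The interaction of genotype with DNP, with DEX in sensitized cells and with DEX in activated cells was called for 0% of all genes by edgeR, for 0 genes by DESeq2 and for none of the receptors. At an unadjusted p under 0.05 the 3 interactions held 30, 40 and 95 genes.

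Scaling bears on these directions. With total counts in place of TMM, the median of all genes moved by -0.34 with DNP in cells without DEX and by -0.27 in cells with DEX on the log2 scale. On that scale Kit fell by 0.60 in both comparisons (edgeR adjusted p = 0.0753 and 0.0881), and 78.9% and 75.6% of called genes were lower in place of 45.5% and 43.0%. With DEX in sensitized cells the share of lower calls went from 42.4% to 53.3%, and between the genotypes from 73.1% to 83.2%.

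Of the ligands of these receptors, the one called without the block was Csf1, the ligand of Csf1r. Csf1 averaged 31.6 ± 14.1 CPM in PEP+/+ IgE libraries and 504 ± 223 CPM with IgE DNP, and 42.7 ± 20.3 and 445 ± 168 CPM in PEP-/- cells (SD, n = 2). It rose with DNP by 3.69 in cells without DEX (log2, SE 0.44, edgeR adjusted p = 0.000163) and by 2.48 in cells with DEX (SE 0.41, adjusted p = 0.00255). Its receptor stayed at 0 to 11 reads in the same libraries. Of 8 ligands, 7 were matched to a row and 4 passed the filter. Of these 4, 1 was called with DNP in either setting (16.7% of all genes without and 12.6% with DEX). None was called with DEX (9.37% and 10.7% of all genes) or between the genotypes (1.59%). With the block 2 of 4 were higher with DNP in cells without DEX, Hgf, the ligand of Met (log2 difference 0.82, edgeR adjusted p = 0.00590), beside Csf1. That fit called 37.9% of all genes in this comparison. In activated cells Hgf and Csf1 were lower with DEX in that fit (log2 difference -0.68 and -0.95, edgeR adjusted p = 0.0221 and 1.40e-05), where 33.3% of all genes were called.

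The other ligands were not called without the block. Kitl, which encodes stem cell factor, averaged at most 0.096 CPM in any group, Mst1, the ligand of Mst1r, at most 0.221 and Il34 at most 0.043. Pros1, which encodes protein S, averaged 53.8 to 65.8 CPM, and Hgf, the ligand of Met, 8.44 to 19.8 CPM. Gas6 averaged 0.512 to 1.95 CPM. Flt3l was not analysed here. Of 7 proteases and inhibitors that cut or protect these receptors or their ligands, 0 were called in any of the 5 comparisons. The blocked fits called 26.7% to 37.9% of all genes in the treatment comparisons. In them the sheddase gene Adam10 and the protease gene Hpn were higher with DNP, at 0.98 and 0.76 without DEX and 0.56 and 1.07 with DEX (log2). With DEX, Hpn was lower in sensitized and activated cells (-1.68 and -1.37), Adam17 was lower in sensitized cells (-0.47) and Adam10 in activated cells (-0.45). Adam17, a sheddase that cuts Kit, was also lower with DNP in cells without DEX (-0.29), and 0 of the 7 were called between the genotypes.

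Of 13 tested kinases and adaptors that carry the Kit signal, 2 rose and 1 fell with DNP in cells without DEX, where 16.7% of all genes were called, and 2 rose and 2 fell in cells with DEX (12.6%). With DEX 2 rose and 2 fell in sensitized cells (9.37%), and 2 rose and 1 fell in activated cells (10.7%). None was called between the genotypes (1.59%). With the block, in fits that called 37.9%, 37.6%, 26.7% and 33.3% of all genes, the counts in the 4 treatment comparisons were 3 higher and 3 lower, 2 and 5, 3 and 2, and 3 and 1. Between the genotypes they were 2 and 0 of 13 (Stat5a and Stat5b), where the block called 17.4% of all genes.

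Pik3cd, the catalytic subunit of a PI3 kinase of blood cells, averaged 531 CPM in PEP+/+ IgE libraries, 268 with IgE DNP, 336 with IgE DEX and 167 with IgE DNP DEX. The PEP-/- means were 542, 218, 283 and 157 CPM. It fell with DNP by 1.15 without DEX and by 0.93 with DEX (log2, SE 0.16 each, edgeR adjusted p = 0.000593 and 0.00347). It fell with DEX by 0.80 in sensitized cells (log2, SE 0.16, edgeR adjusted p = 0.00897). The call with DEX in activated cells, -0.58 (adjusted p = 0.0431 by edgeR), was lost in 15 of 16 fits that left out 1 library, with adjusted p up to 0.131.

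Lyn, a Src family kinase that acts beside Kit and the IgE receptor, averaged 141 and 160 CPM in PEP+/+ and PEP-/- IgE libraries and 291 and 316 CPM with IgE DEX. It rose with DEX by 1.01 in sensitized and 0.98 in activated cells (log2, SE 0.10 each, edgeR adjusted p = 9.72e-05 and 0.000151). Its rises with DNP, 0.41 and 0.37 without and with DEX (adjusted p = 0.0190 and 0.0380 by edgeR), were lost in 6 and 8 of the 16 fits that left out a library and with total counts in place of TMM. Pik3r1, the regulatory subunit of PI3 kinase, was called with DEX at 1.31 and 1.42 in sensitized and activated cells (log2, SE 0.34 and 0.35, edgeR adjusted p = 0.0341 and 0.0231), and these calls were lost in 8 and 4 of the 16 fits. The calls of Stat5a (0.70 with DNP without DEX), Stat5b (-0.66 with DNP and DEX) and Lat2 (0.59 with DNP and DEX, -0.55 with DEX) were lost in 8, 11, 6 and 10 of the 16 fits.

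Of 9 inhibitors of Kit signaling, 1 rose and 2 fell with DNP in cells without DEX (16.7% of all genes called) and 1 fell in cells with DEX (12.6%). With DEX 3 rose and 1 fell in sensitized cells (9.37%) and 1 rose and 1 fell in activated cells (10.7%). Cblb, a ubiquitin ligase, averaged 26.9 and 32.7 CPM in PEP+/+ and PEP-/- IgE libraries, 16.7 and 19.9 with IgE DNP, and 57.4 and 79.0 with IgE DEX. It rose with DEX by 1.19 and 1.15 (log2, SE 0.21 each, edgeR adjusted p = 0.00362 and 0.00461). It was lower with DNP by -0.70 and -0.74 (SE 0.21 and 0.20, adjusted p = 0.0380 and 0.0361 by edgeR), calls that were lost in 7 and 8 of the 16 fits that left out a library.

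Sh2b3, the adaptor LNK that restrains Kit, rose with DNP by 0.78 (log2, SE 0.16, edgeR adjusted p = 0.00538) but not past the test with total counts in place of TMM. The calls of Sh2b3 and Socs1 with DEX in sensitized cells (0.61 and 1.59), Dok1 with DNP (-0.49) and the phosphatase gene Ptpn6 with DEX (-0.45 and -0.40) were lost in 5, 13, 5, 6 and 8 of the 16 fits. With the block, 2 of the 9 inhibitors were higher and 2 lower with DNP without DEX (37.9% of all genes called), 1 higher and 2 lower with DNP in cells with DEX (37.6%), 3 and 1 with DEX in sensitized cells (26.7%) and 3 and 1 in activated cells (33.3%). Between the genotypes Cblb (0.33) and Inpp5d (0.32) were higher and Socs1 (-0.96) lower in PEP-/- cells with the block (17.4%).

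Among 8 transcription factors known to act on Kit, 1 fell with DNP in cells without DEX (16.7% of all genes called) and 0 moved with DNP in cells with DEX (12.6%). With DEX 2 were lower in sensitized cells (9.37%) and 1 in activated cells (10.7%). Runx1 fell with DEX by 0.96 and 0.88 (log2, SE 0.16 each, edgeR adjusted p = 0.00331 and 0.00554), from 190 and 201 CPM in PEP+/+ and PEP-/- IgE libraries to 101 CPM in both genotypes with IgE DEX. Lmo2 was lower with DNP by -0.75 and with DEX by -0.73 in cells without the other agent (SE 0.17 each, adjusted p = 0.0115 and 0.0202 by edgeR). The first call was lost without PEP+/+ IgE replicate 1, PEP+/+ IgE DNP replicate 2 or PEP-/- IgE DNP replicate 2, with adjusted p up to 0.0565, and the second in 6 of the 16 fits. With the block, 5 of the 8 were called with DNP without DEX (37.9% of all genes) and 5 with DNP in cells with DEX (37.6%). The blocked counts were 5 with DEX in sensitized cells (26.7%), 3 with DEX in activated cells (33.3%) and 0 between the genotypes (17.4%).

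Of the 50 other receptor tyrosine kinases, 4 had no read in any library and 17 passed the filter. With DNP 0 rose and 3 fell in either setting (16.7% of all genes called without and 12.6% with DEX). With DEX 1 rose and 4 fell in sensitized cells (9.37%) and 1 rose and 2 fell in activated cells (10.7%). None was called between the genotypes without the block. With it, 3 rose and 5 fell with DNP without DEX (37.9% of all genes called) and 2 and 5 with DEX present (37.6%). With DEX the blocked counts were 3 and 5 in sensitized cells (26.7%) and 3 and 7 in activated cells (33.3%). The 3 higher in PEP-/- cells with the block, Insr, Erbb3 and Pdgfrb, are given above.

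Insr, the insulin receptor, was higher with DEX in both genotypes. It averaged 28.4 ± 1.24 and 33.7 ± 1.26 CPM in PEP+/+ and PEP-/- IgE libraries and 86.9 ± 11.6 and 104 ± 5.68 CPM with IgE DEX (SD, n = 2). It rose by 1.62 in sensitized and 1.43 in activated cells (log2, SE 0.14 each, edgeR adjusted p = 1.85e-05 and 5.87e-05). With DNP it was lower by -0.63 in cells with DEX (SE 0.13, adjusted p = 0.00923 by edgeR) and by -0.44 without (adjusted p = 0.0445), a call lost in 14 of the 16 fits that left out a library.

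Aatk, an apoptosis-associated kinase, fell with DNP by 1.4 without DEX and 1.29 with DEX (log2, SE 0.16 each, edgeR adjusted p = 0.000129 and 0.000383), from 17.7 and 20.8 CPM in IgE libraries to 7.25 and 7.34 CPM with IgE DNP. Tek, the angiopoietin receptor, fell with DEX in sensitized and activated cells (log2 difference -1.11 and -1.09, SE 0.20 each, edgeR adjusted p = 0.00434 and 0.00519). Styk1 fell with DEX in sensitized cells by 1.5 (SE 0.30, adjusted p = 0.00873 by edgeR). The calls of Styk1 with DNP (-1.10), Lmtk2 with DNP and DEX (-0.84), Ddr1 and the ephrin receptor Epha3 with DEX in sensitized cells (-1.58 and -3.11) and Igf1r with DEX in activated cells (-0.78) were lost in 5, 5, 6, 5 and 15 of the 16 fits.

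**Figure D5:**
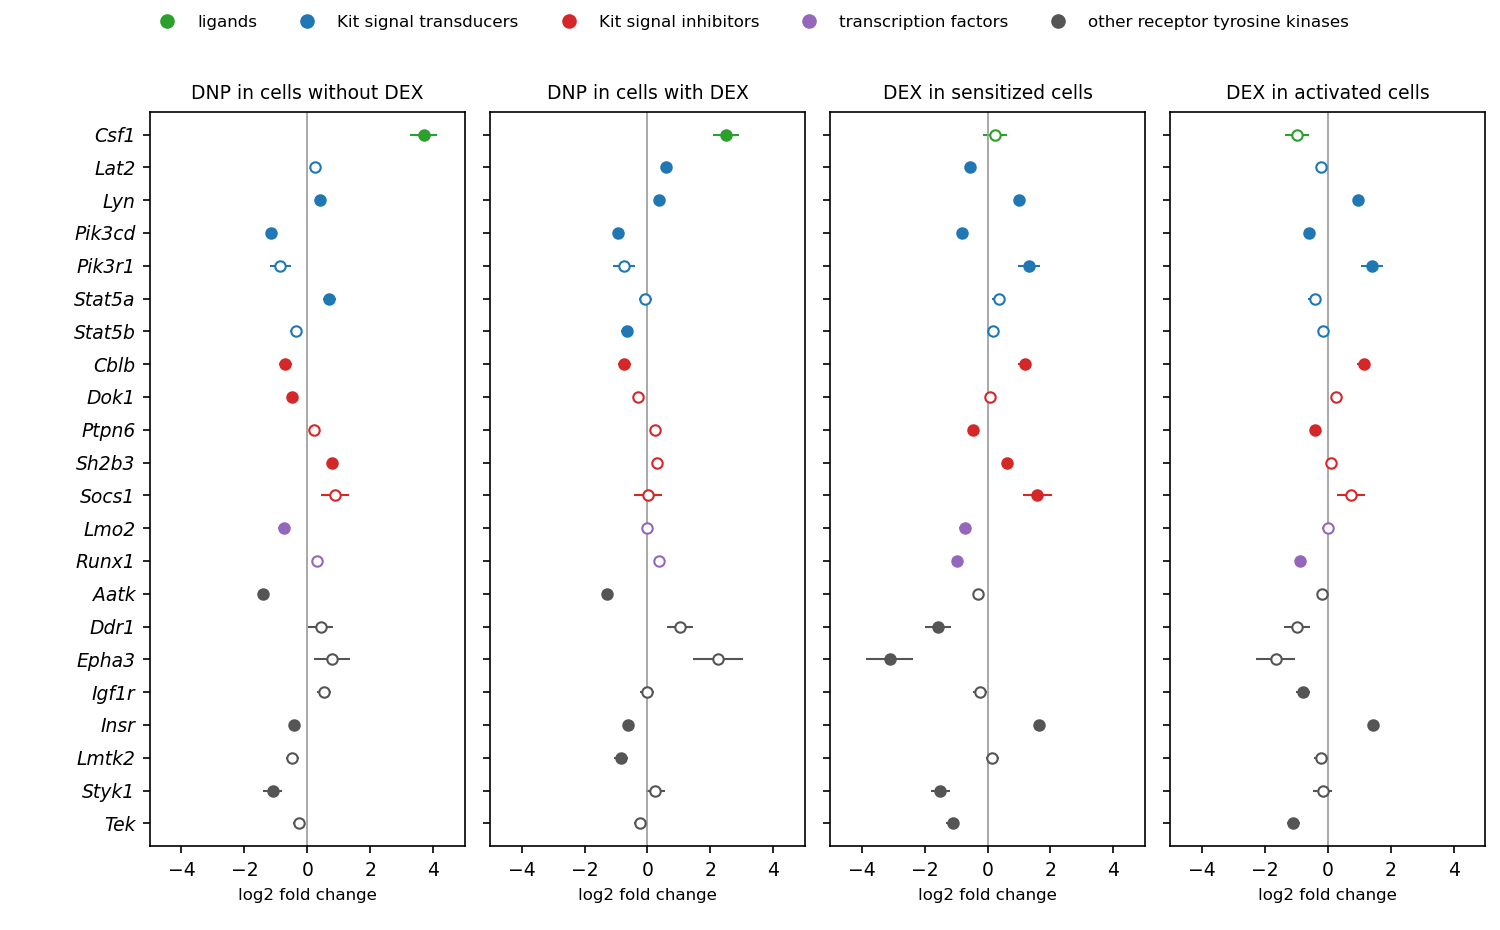
Log2 fold change with its SE for genes called in at least 1 of the 4 treatment comparisons from the lists of ligands, Kit signal transducers, Kit signal inhibitors, transcription factors and other receptor tyrosine kinases, with filled points for adjusted p under 0.05. Csf1 rises with DNP at 3.69 and 2.48, Insr and Lyn rise with DEX, and Pik3cd and Aatk fall with DNP in both settings.

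Markers of mast cells and of other cells were read beside these values. Of 10 mast cell markers, Hdc, which makes histamine, was the 1 called without the block, and it was higher in all 4 treatment comparisons (log2 difference 3.12, 2.12, 2.22 and 1.21). The blocked fits of these comparisons called 26.7% to 37.9% of all genes. With the block, Mitf was also lower with DNP (-0.40 without and -0.56 with DEX) and higher with DEX (0.56 in sensitized and 0.39 in activated cells). In activated cells Fcer1a (0.48) and Cpa3 (0.37) were then higher and Mcpt4 (-0.89) and Il1rl1 (-0.47) lower with DEX. Cd34, carried by progenitors and mouse mast cells, rose with DEX by 1.72 in sensitized and 1.67 in activated cells (log2, SE 0.19 each, edgeR adjusted p = 0.000175 and 0.000228). The neutrophil and progenitor list that holds it summed to 389 to 595 CPM without DEX and 1332 to 1940 CPM with it. Of the 8 genes in that list 2 passed the filter, and Cd34 was the 1 called with DEX. The median of the 2 was 0.58 in sensitized and 0.87 in activated cells (log2), so the sum does not stand for the list. The basophil list summed to 539 to 883 CPM without DEX and 229 to 479 CPM with it. Of its 3 genes tested, Cd200r3 was the 1 called, in all 4 comparisons (0.50, 0.68, -1.12 and -0.94). Its call with DNP without DEX was lost in 5 of the 16 fits that left out a library, without a filter and with total counts. Of the macrophage genes, Cd14 was called with DNP and C1qc with DEX, and the call of Cd14 with DNP and DEX was lost in 4 of the 16 fits and with only the compared conditions. With the block Cd14 was also lower with DEX in activated cells (-0.70). Of the dendritic cell genes, Xcr1 was then higher with DNP without DEX (2.17) and lower with DEX in activated cells (-2.86), and Itgax lower with DEX in both settings (-1.49 and -1.59), and the dendritic cell list summed to 15 to 44.6 CPM. Their part in the results for the receptors was not tested.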

How the data were processed

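RNA sequencing was done on 16 BMMC libraries (8 conditions, 2 replicates each). The authors aligned paired reads to GRCm38 with TopHat2 and deposited one table of raw gene counts per library, made with HTSeq, and bcl2fastq and DESeq2 are also named in the submitters' processing notes. HTSeq leaves out reads that map to several places. The summary rows that name no gene, which held 29.1% to 49.6% of the counts in a file, were left out. Symbols, positions and lengths came from GENCODE M21 for 37693 of 39179 gene rows (96.2%), and upstream sequences from RefSeq (GRCm38.p6).

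Counts were tested with the quasi-likelihood test of edgeR 4.0.16 in R 4.3.3, with TMM scaling, 1 mean per condition over all 16 libraries and a filter on low counts (filterByExpr, minimum count 10), which kept 13305 genes. Genes at a Benjamini-Hochberg adjusted p under 0.05 were called. Treatment differences are means of the 2 genotypes. The SE is the size of the log2 difference divided by the square root of F. Levels are TMM-scaled CPM, or RPKM where genes were compared. The unblocked edgeR test was run on simulated counts with known changes for DNP in cells without DEX. Deviations shared within a replicate number, and the other steps, were not simulated. DESeq2 1.42.0 was an alternative.

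The members and gene lists were chosen with earlier results of these data known. All 8 members are named, and from each other list up to 3 called genes per direction and comparison by size of the difference, with a few levels and marker sums added after values were seen. The 3 genes most like a member have the smallest root mean square difference in centred log2 CPM (prior count 2). Replicate 1 is the numbered and replicate 2 the lettered sample of a condition. The deviations of same-numbered libraries correlated in all 28 pairs of conditions (0.453 to 0.799, mean 0.672), so the numbers were taken to pair the libraries. Values with the replicate number as a block are given where they change a call of a receptor. They are also given where they change the counts of a list, except for the antigen and glucocorticoid response genes. The genes that this block adds to a list were named after their values were seen.

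The alternatives were DESeq2, its size factors in edgeR, no filter, at least 10 counts in every library, only the compared conditions, the replicate block, each library left out in turn and, added after seeing the data, total counts in place of TMM. A count of 0 was given a floor of 3 reads, and ratios of summed reads have exact 95% intervals. The IgE dose printed is that of the labels, from which the study's methods differ.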

Additional observations from a re-analysis of the deposited data

How the results depend on the processing

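The counts of receptors called stayed at 0 with DESeq2, DESeq2 size factors, total counts, at least 10 counts in every library and the fit of only the compared conditions, which gives no value for the genotype average or the interaction of DNP and DEX. With the replicate block the count went from 0 to 1 for DNP in cells with DEX and for genotype (Kit) and for DEX in sensitized cells (Met), and it changed no other call of a receptor. Without a filter it went from 0 to 1 for DNP in cells without DEX (Axl). In fits that left out 1 library, Axl passed the filter in 15 of 16, with a log2 difference of 2.54 to 4.16 for DNP without DEX. It passed through IgE DNP libraries, where its level was highest. Calls of Axl in some of these fits are therefore no test of DNP, and no other receptor was called. Kit kept its direction in all fits, at 0.000209 with DEX in activated cells without PEP-/- IgE DNP DEX replicate 1. Met, Mst1r and Tyro3 did not pass the filter of at least 10 counts in every library. With a prior count of 0.5 the 3 genes most like Mst1r and Tyro3 shared 0 and 1 names with the main ones.

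Leaving out 1 library turned the direction of several receptors that were not called. Met ran from -0.53 to 1.11 with DNP without DEX (turned without either IgE replicate 1 or PEP+/+ IgE DNP replicate 2), from -0.97 to 0.30 with DNP and DEX (PEP-/- IgE DEX replicate 1), and from -0.28 to 0.76 between genotypes (replicate 1 of PEP-/- IgE, IgE DEX or IgE DNP DEX, or PEP+/+ IgE replicate 2). Tyro3 ran from -0.21 to 0.62 with DNP without DEX (any IgE or IgE DNP replicate 2), and from -2.34 to 0.86 with DNP and DEX and -0.61 to 1.02 between genotypes (PEP+/+ IgE DNP DEX replicate 2 in both). Mst1r between genotypes in IgE DNP ran from -1.35 to 0.68 (PEP+/+ replicate 2 or PEP-/- replicate 1). Met with DEX in sensitized cells ran from 0.51 to 2.59 and Tyro3 with DEX in activated cells from -3.71 to -0.51. Met with DNP without DEX was 0.0096 with the block, and Tyro3 there was -0.17 with total counts, a setting chosen after seeing the data. With CPM from total counts the level moved beyond 1 SD for Kit in PEP+/+ IgE DNP DEX (2126) and Tyro3 in PEP+/+ IgE DEX (0.473).

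Genes called moved by over 1.5 times for genotype (212 to 707 with DESeq2, 472 without a filter, 2310 with the block), the interaction of DNP and DEX (44 to 101, 107 and 209), DNP without DEX (2216 to 3466 with total counts, 5042 with the block), DNP with DEX (1678 to 2575 with total counts, 953 with only the compared conditions, 5007 with the block), DEX in sensitized cells (1247 to 3548 with the block) and DEX in activated cells (1418 to 805 with only the compared conditions, 4429 with the block). Leaving out 1 library gave 1390 to 2251, 927 to 1604, 845 to 1269 and 852 to 1317 in the 4 treatment comparisons, 57 to 203 for genotype and 12 to 27 for the interaction. Without a filter the genotype interactions held 3, 2 and 24 genes. Of 86 calls of listed genes, 58 held in all fits that left out a library, none reversed, and 12, 9, 1 and 23 were lost without a filter, with total counts, with at least 10 counts in every library and with only the compared conditions. The cause was not tested. Depth limits Axl, Csf1r, Flt3 and Mertk, at no more than 11 reads per library.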
